A study of Mus musculus with 48 samples.

Results

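The lipid-associated macrophage markers are 10 genes, Gpnmb, Trem2, Spp1, Cd9, Cd63, Lgals3, Clec7a, Itgax, Fabp5 and Tyrobp, taken by symbol from the 29221 genes counted in whole mouse liver. All 10 were found, and all 10 passed the filter on low counts in each of the 13 pairwise comparisons. Liver RNA from 48 adult mice with a floxed Pparg gene was sequenced, 1 library per mouse. Males on the high fat (HF) diet and on the diet high in fat, cholesterol and fructose (HFCF) formed 4 groups of 6. Females on the low fat (LF), HF and HFCF diets formed 6 groups of 4. LF and HF mice ate their diet for 34 weeks, and HFCF mice ate the HF diet for 18 weeks and then the HFCF diet for 16 weeks. After 16 weeks on diet every mouse received an adeno-associated virus of serotype AAV8 with the hepatocyte promoter TBG. It carried Cre recombinase (AAV8-TBG-Cre) in the groups labelled knockout and no Cre (AAV8-TBG-null) in the controls. The virus and the floxed gene are therefore shared by all groups, and the deletion is directed at hepatocytes and not at macrophages.

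Lipid-associated macrophages are macrophages that gather where lipid and dying cells accumulate, as in obese adipose tissue and fatty liver. TREM2 is a receptor on their surface that senses lipids and cell debris and signals through the adaptor TYROBP (DAP12). The cells take up lipid, carry it into lysosomes and secrete factors such as osteopontin (Spp1), and in fatty liver they are known from the areas of fibrosis and from crown-like structures around lipid-laden hepatocytes. Several of the 10 genes are also made by other liver cells, such as Spp1 and Cd9 in bile duct epithelium. In whole-liver RNA, more cells of a type and more RNA per cell cannot be told apart.

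On HFCF against HF, 9 of the 10 markers were higher in male controls, where 13.0% of the 14475 genes tested were called higher and 9.31% lower. In male labelled knockouts 10 of 10 were higher, against 21.6% of all genes higher and 20.0% lower. In female controls 9 of 10 were higher, against 16.9% and 13.8%, and in female labelled knockouts 6 of 10, against 8.44% and 6.01%. For HF against LF in females 0 of 10 passed the threshold by edgeR, where 0.696% of all genes were called in controls and 0.155% in labelled knockouts. In each, 2 of 10 had an unadjusted p under 0.05, as had 2314 of all 14216 genes in controls and 1902 of 14214 in labelled knockouts. Gpnmb had the largest log2 fold change of the 10 between HFCF and HF in all 4 of those comparisons. In HF males, 7 of the 10 were lower in labelled knockouts than in controls, against 9.88% of all genes lower and 8.57% higher. In the other 4 comparisons of labelled knockouts with controls 0 of 10 passed the test by edgeR or DESeq2, against 2.21%, 0%, 0% and 0.0534% of all genes called by edgeR in HFCF males and in LF, HF and HFCF females. At an unadjusted p under 0.05 there were 3, 0, 0 and 0 of 10. Of all genes there were 2085 of 14685, 355 of 14285, 1135 of 14128 and 1340 of 14980. A gene is called here where the adjusted p of edgeR's quasi-likelihood test, adjusted by Benjamini-Hochberg over all genes tested, is under 0.05. The standard error (SE) was derived from that test, as the absolute log2 fold change divided by the square root of its F statistic.

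The library totals ran from 15338239 to 22072884 reads on genes. Pparg, the gene that the Cre virus targets, was higher on average in every labelled-knockout group than in its controls. Its group means ran from 10.5 to 34.3 CPM (reads of the gene scaled to the library total) in controls and from 15.6 to 55.9 CPM in labelled knockouts. On HFCF the libraries did not overlap. They ran from 47.7 to 63.5 CPM in male labelled knockouts and from 25.5 to 38.85 CPM in male controls. In females they ran from 39.6 to 59.3 and from 21.9 to 25.2 CPM. The groups are therefore called labelled knockout throughout. Reads outside the deleted part of the gene would be counted as well. The defining hepatocyte markers were abundant in every library, and adipocyte and pancreas markers summed to at most 0.218 and 0.404 CPM in any library.

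Of the 10 markers, 4 libraries stood apart from the rest of their group for at least 2. Male HFCF control replicate 1 was the lowest of its 6 for 9 of the 10 markers, all but Fabp5. Female HF control replicate 1 was the highest of its 4 for 9 of 10, all but Tyrobp. Female HF labelled-knockout replicate 3 was the highest of its 4 for 7 of 10, furthest above the others for Itgax and Lgals3. Female LF control replicate 1 was the highest of its 4 for 6 of 10, furthest above the others for Gpnmb and Trem2. Where 1 of these libraries moves a named log2 fold change of the 10 markers by over 1.5 times, the value without it is given in the same paragraph. The choice to leave out these 4 was made after their values were seen, so the values without them are no independent support.

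**Figure D1:**
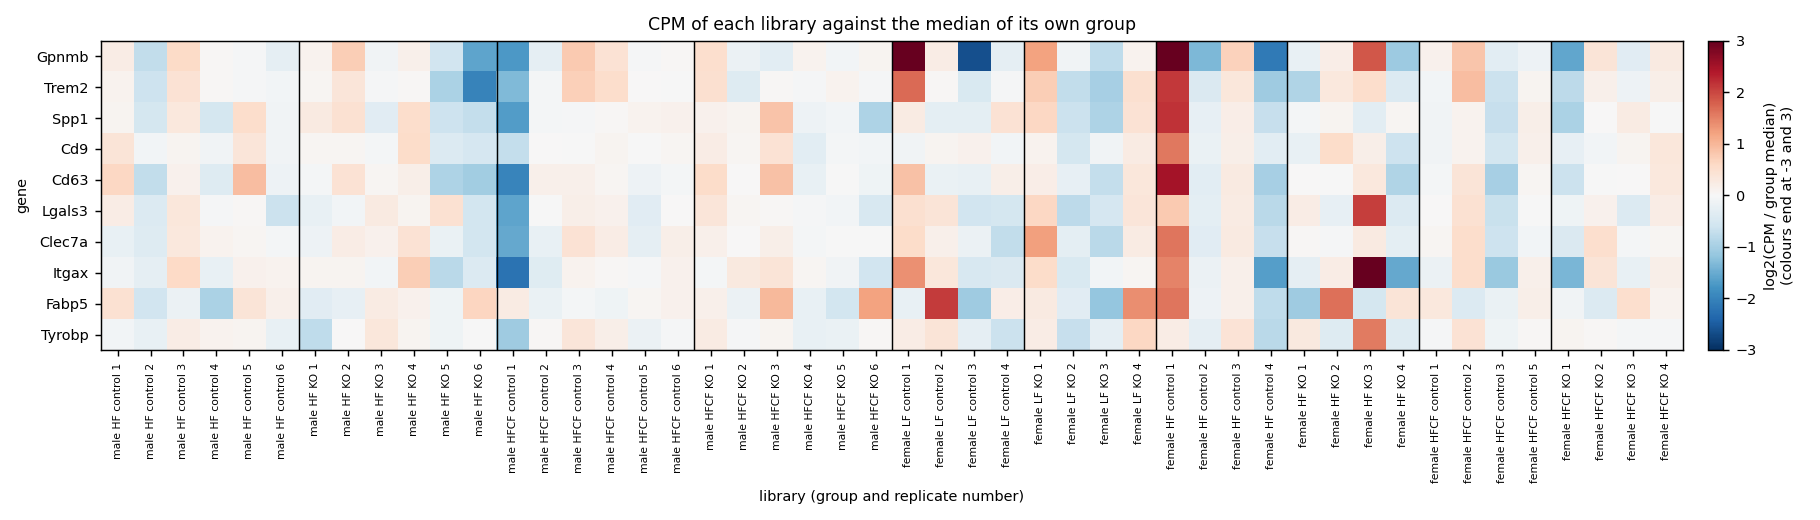
Each column is 1 of the 48 libraries and each row 1 marker; the colour is the log2 ratio of the library's CPM to the median of its own group, and black lines separate the 10 groups. Male HFCF control replicate 1 is blue in 9 rows, and female HF control replicate 1 is red in all rows, most in Gpnmb, where it stands at 19.5 CPM against 0.368 to 2.55 CPM in the other 3.

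The stretches upstream of 4 markers that rose together, and a short window of Gpnmb, are shown because they hold matches to motifs of factors known from macrophages. RefSeq windows of 300 bases (250 before and 50 after the listed start, build GRCm38.p6) were found for 8 of the 10 markers. Fabp5 and Tyrobp had no entry, and Spp1 and Clec7a each had a further window. The start meant here is the RefSeq start. It can differ from the gene bounds given further down, as for Gpnmb, Cd63 and Lgals3. Motifs were searched on both strands: CACGTG, the E-box bound by MITF and TFE factors; GAGGAA, the core of PU.1 sites; and TGANTCA, the AP-1 site. No search motif overlapped another in these windows. Capitals mark the matches, and each sequence is the strand of the gene, 5′ to 3′.
Trem2, chr17:48346201-48346400, plus strand, the 200 bases before the start: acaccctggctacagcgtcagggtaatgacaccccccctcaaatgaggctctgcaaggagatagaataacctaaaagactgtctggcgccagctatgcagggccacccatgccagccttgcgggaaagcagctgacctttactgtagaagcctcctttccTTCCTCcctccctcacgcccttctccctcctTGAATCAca
Itgax, chr7:128129350-128129549, plus strand, the 200 bases before the start: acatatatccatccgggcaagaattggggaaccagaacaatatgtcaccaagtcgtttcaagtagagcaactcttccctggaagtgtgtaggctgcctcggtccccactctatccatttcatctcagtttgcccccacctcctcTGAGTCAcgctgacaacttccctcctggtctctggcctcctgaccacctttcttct
Clec7a, chr6:129472780-129472979, minus strand, the 200 bases before the start: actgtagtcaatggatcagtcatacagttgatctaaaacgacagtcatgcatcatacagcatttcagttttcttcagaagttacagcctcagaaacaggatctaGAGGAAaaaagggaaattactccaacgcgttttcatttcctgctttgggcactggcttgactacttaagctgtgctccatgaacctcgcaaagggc
Spp1, chr5:104434911-104435110, plus strand, the 200 bases before the start: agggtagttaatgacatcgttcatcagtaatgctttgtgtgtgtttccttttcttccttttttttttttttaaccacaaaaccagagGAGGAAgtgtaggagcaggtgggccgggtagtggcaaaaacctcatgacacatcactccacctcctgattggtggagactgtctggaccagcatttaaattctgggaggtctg
Gpnmb, chr6:49036515-49036544, plus strand, a window of 30 bases that spans the start: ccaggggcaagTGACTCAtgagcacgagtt
An AP-1 match lay in the windows of Gpnmb, Trem2 and Itgax, against 7.81% of the 32851 windows of the same length. A PU.1 core lay in those of Trem2, Cd63 and Clec7a and in the Spp1 window shown, but not in the further window of Spp1. Of all windows 28.3% held a PU.1 core. No E-box letters lay in any window of the 8 markers, against 7.15% of all windows. These shares count windows and not genes. A match is a description of letters and not a bound site, and these data hold no measure of binding.

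The receptors come next. Trem2 (ENSMUSG00000023992, GRCm38 chromosome 17, 48346401 to 48354147, plus strand) encodes the lipid-sensing receptor. In male controls it had a lowest, median and highest value of 4.22, 6.48 and 8.81 CPM on HF and of 8.75, 21.9 and 36.0 CPM on HFCF. The groups overlapped only because HFCF replicate 1, at 8.75 CPM, lay just under the highest HF library. The log2 fold change was 1.89 (SE 0.27, adjusted p = 0.000832, edgeR). In male labelled knockouts the values were 0.908, 3.64 and 4.64 CPM on HF and 11.4, 14.9 and 20.9 CPM on HFCF, without overlap, a log2 fold change of 2.35 (SE 0.25). Female controls measured 11.2, 1.92, 3.24 and 1.23 CPM on HF (replicates 1 to 4) and 19.1, 38.8, 13.1 and 21.5 CPM on HFCF (replicates 1, 2, 3 and 5). Every HFCF library lay above every HF library, although HF replicate 1 came close, and the log2 fold change was 2.39 (SE 0.61, adjusted p = 0.0186, edgeR). Leaving out 1 library ended that call in 3 cases: the adjusted p (edgeR) was 0.0503 without HF replicate 2, 0.0561 without HF replicate 3 and 0.0556 without HFCF replicate 2. Without HF replicate 1 the log2 fold change was 3.45. In female labelled knockouts Trem2 measured 1.18, 2.76, 3.18 and 1.69 CPM on HF and 11.98, 23.0, 18.6 and 23.3 CPM on HFCF, a log2 fold change of 3.12 (SE 0.33).

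Tyrobp (chromosome 7, 30413760 to 30417585, plus strand), the adaptor through which TREM2 signals, moved less than Trem2. Its log2 fold change between HFCF and HF was 0.96 (SE 0.18) in male controls, 1.07 (SE 0.14) in male labelled knockouts and 1.33 (SE 0.24) in female controls, each called. In female labelled knockouts it was 0.82 (SE 0.38, adjusted p = 0.176, edgeR). There the HF values were 15.3, 9.41, 36.7 and 9.49 CPM and the HFCF values 33.5, 32.3, 30.2 and 30.7 CPM. The third HF library was thus above all HFCF libraries, and without it the log2 fold change was 1.48 (adjusted p = 0.0016, edgeR). With all 10 groups in 1 fit and every library kept, Tyrobp was also called there, at 0.82 (adjusted p = 0.0328, edgeR). Clec7a (chromosome 6, 129461591 to 129472779, minus strand), which encodes the beta-glucan receptor dectin-1 and which the deposited tables class as a polymorphic pseudogene, was called higher on HFCF in all 4 comparisons with HF. Its log2 fold changes were 1.26, 1.75, 2.12 and 2.32 in male controls, male labelled knockouts, female controls and female labelled knockouts (2.83 in female controls without HF replicate 1). The group means ran from 8.88 to 18.9 CPM on HF and from 39.7 to 55.1 CPM on HFCF.

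Itgax (chromosome 7, 128129547 to 128150657, plus strand) encodes CD11c, an integrin chain of macrophages and dendritic cells. In male controls it measured 6.04, 7.23 and 10.9 CPM (lowest, median and highest) on HF and 5.87, 27.2 and 29.8 CPM on HFCF. HFCF replicate 1, at 5.87 CPM, was below every HF library, and the other 5 were above all of them. The log2 fold change was 1.66 (SE 0.29, adjusted p = 0.00208, edgeR). In female labelled knockouts the values were 3.23, 4.54, 40.8 and 1.34 CPM on HF and 8.97, 30.5, 20.1 and 26.5 CPM on HFCF. The log2 fold change was 0.77 (SE 0.84, adjusted p = 0.589, edgeR), and 2.83 (adjusted p = 0.00538) without HF replicate 3. The call in this comparison is therefore decided by 1 library, at 40.8 CPM.

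Among the secreted members, Spp1 (ENSMUSG00000029304, chromosome 5, 104435118 to 104441050, plus strand) encodes osteopontin, a matrix protein and cytokine that binds integrins and CD44. It was the most abundant of the 10 on a per-length scale in all 10 groups. Its deposited value in male HFCF controls was 248 ± 81.5 FPKM (SD, n = 6), where FPKM are fragments scaled to the gene's summed exon length and library size. Tyrobp, the next, had 41.9 ± 12.03 FPKM and Trem2, the last, had 4.78 ± 1.93 FPKM. The summed exon length was 667 bases for Tyrobp and 4946 bases for Trem2, so the ranks depend on it. Without scaling to length, Tyrobp and Trem2 had means of 27.85 and 23.53 CPM in that group. In male controls Spp1 measured 93.7, 136 and 197 CPM on HF and 141, 448 and 492 CPM on HFCF, lowest, median and highest. HFCF replicate 1 (141 CPM) lay inside the HF range and the other 5, from 431 CPM upwards, lay above it. Its log2 fold change was 1.60 (SE 0.26, adjusted p = 0.00159, edgeR). Female controls measured 247, 46.5, 63.0 and 34.1 CPM on HF and 405, 468, 272 and 491 CPM on HFCF, a log2 fold change of 2.07 (SE 0.58, adjusted p = 0.0256, edgeR). Leaving out any single library but HF replicate 1, at 247 CPM, or HFCF replicate 3 ended that call, with adjusted p (edgeR) between 0.0528 and 0.0728. Without HF replicate 1 the log2 fold change was 3.10. In male and female labelled knockouts Spp1 rose by log2 fold changes of 2.26 (SE 0.28) and 2.61 (SE 0.24).

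Lgals3 (chromosome 14, 47367751 to 47386160, plus strand) encodes galectin-3, a sugar-binding protein of activated macrophages. It was called higher on HFCF in 3 of the 4 comparisons, with log2 fold changes of 1.77 (SE 0.25), 1.94 (SE 0.16) and 2.05 (SE 0.33) in male controls, male labelled knockouts and female controls. In female labelled knockouts it measured 6.83, 4.93, 24.7 and 4.43 CPM on HF and 28.1, 33.3, 23.1 and 35.8 CPM on HFCF. HF replicate 3 alone overlapped the HFCF libraries. For Lgals3 the log2 fold change was 1.53 (SE 0.49, adjusted p = 0.062, edgeR), and 2.48 (adjusted p = 0.00103) without that library.

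Gpnmb (ENSMUSG00000029816, chromosome 6, 49036546 to 49070929, plus strand) encodes a transmembrane glycoprotein of lysosome-rich cells. In male controls it measured 7.53, 12.5 and 18.4 CPM on HF and 23.2, 76.6 and 133 CPM on HFCF, lowest, median and highest. The groups did not overlap, and the lowest HFCF library was again replicate 1. The log2 fold change was 2.69 (SE 0.33, adjusted p = 0.000292, edgeR), or 6.46-fold. In male labelled knockouts the values were 1.30, 3.91 and 6.49 CPM on HF and 40.1, 50.01 and 71.3 CPM on HFCF. That is a log2 fold change of 3.79 (SE 0.24, adjusted p = 1.49e-07, edgeR), or 13.9-fold. Female labelled knockouts measured 0.645, 0.855, 2.74 and 0.352 CPM on HF and 20.9, 80.9, 48.4 and 74.8 CPM on HFCF. The log2 fold change there was 5.53 (SE 0.59, adjusted p = 0.00143, edgeR). Female controls measured 19.5, 0.619, 2.55 and 0.368 CPM on HF and 58.0, 93.7, 42.2 and 47.8 CPM on HFCF, a log2 fold change of 3.37 (SE 0.88, adjusted p = 0.0202, edgeR). HF replicate 1 was the only HF library of that group above 2.55 CPM, and without it the log2 fold change was 5.69 (adjusted p = 7.89e-05, edgeR). In female labelled knockouts it was 6.497 without HF replicate 3. In controls the adjusted p (edgeR) was 0.0614 without HF replicate 3 and 0.0542 without HFCF replicate 2.

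The tetraspanins Cd9 and Cd63 organise membrane proteins; CD63 sits in late endosomes and lysosomes and CD9 mainly at the cell surface. Cd9 (chromosome 6, 125460266 to 125494791, minus strand) had the smallest called rise in male controls, with a log2 fold change of 0.82 (SE 0.13), and rose by 1.13, 2.0 and 1.92 in male labelled knockouts, female controls and female labelled knockouts (2.65 in female controls without HF replicate 1). Cd9 overlaps the antisense gene Gm28809, and reads were not assigned by strand. Gm28809 had at most 11 reads in any library. How reads that fit both genes were counted is not stated, so this low count does not measure them. Cd63 (chromosome 10, 128900989 to 128912822, plus strand) was called in labelled knockouts of both sexes, with log2 fold changes of 2.15 (SE 0.25) in males and 2.72 (SE 0.27) in females. In controls it was not: the log2 fold change was 0.79 (SE 0.32, adjusted p = 0.0867, edgeR) in males and 1.67 (SE 0.67, adjusted p = 0.0822, edgeR) in females. Male controls measured 17.7, 29.5 and 56.1 CPM on HF and 16.0, 62.9 and 70.3 CPM on HFCF. Female controls measured 53.5, 7.55, 11.3 and 4.72 CPM on HF and 62.0, 84.3, 32.6 and 67.0 CPM on HFCF. The missing calls changed with single libraries: without male HFCF control replicate 1 (16.0 CPM) the log2 fold change was 0.98 (adjusted p = 0.00235, edgeR), and without female HF control replicate 1 (53.5 CPM) it was 2.98 (adjusted p = 0.000227, edgeR). With all 10 groups in 1 fit and every library kept, Cd63 was called in female controls at 1.67 (adjusted p = 0.00436, edgeR). In males it was also called without HF replicate 5, at 0.997 (adjusted p = 0.0411, edgeR). The pseudogene Cd63-ps, which matches Cd63 transcripts over 858 bases at up to 99.3% identity, held at most 7 reads in any library. Nor does this count measure the reads that fit both.

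Fabp5 (ENSMUSG00000027533, chromosome 3, 10012548 to 10016607, plus strand) encodes a cytosolic fatty acid carrier. In male controls it measured 5.11, 9.94 and 13.7 CPM on HF and 18.7, 21.3 and 25.5 CPM on HFCF, without overlap, a log2 fold change of 1.18 (SE 0.19, adjusted p = 0.0015, edgeR). With all 10 groups in 1 fit the adjusted p was 0.064. It was the only marker for which male HFCF control replicate 1 was the highest and not the lowest of its group. In females its order over diets differed from that of the other 9. Female controls measured 37.1, 184, 20.6 and 49.3 CPM on LF, 19.1, 5.57, 6.91 and 3.68 CPM on HF and 67.0, 40.6, 47.1 and 60.2 CPM on HFCF. Female labelled knockouts measured 135, 88.9, 49.8 and 295 CPM on LF, 6.51, 43.0, 9.41 and 17.9 CPM on HF and 43.0, 34.5, 65.0 and 49.3 CPM on HFCF. The LF libraries thus spread from 20.6 to 295 CPM, and within each genotype all lay above all HF libraries. Between HFCF and HF, Fabp5 rose by 2.61 (SE 0.44) in female controls, or by 3.33 without HF replicate 1. In female labelled knockouts it had 1.34 (SE 0.49, adjusted p = 0.0929, edgeR). Without HF replicate 2, the library at 43.0 CPM, it had 2.11 (adjusted p = 0.00997, edgeR). With every library kept, it was called without the filter on low counts (adjusted p = 0.0481, edgeR) and with all 10 groups in 1 fit (adjusted p = 0.049, edgeR). Processed copies of Fabp5, such as Gm6166, match its transcripts at up to 99.4% identity, and Gm6166 held at most 11 reads in any library. That count does not measure the reads that fit both genes.

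**Figure D2:**
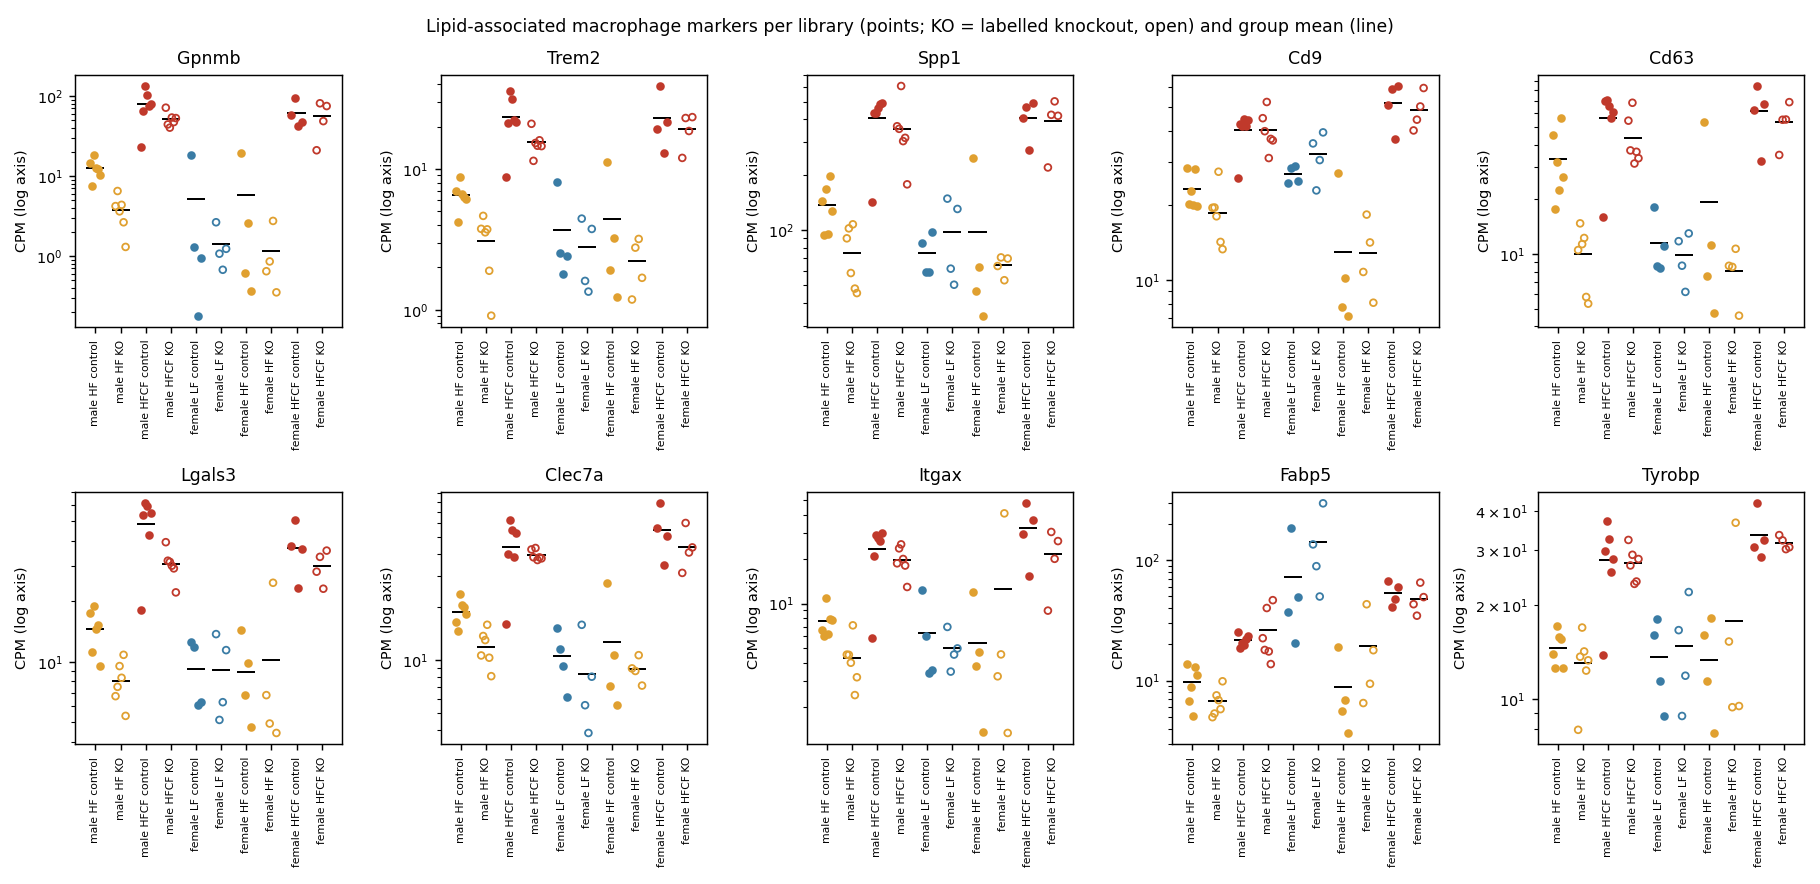
Each panel is 1 marker; points are libraries (filled for controls, open for labelled knockouts), lines are group means, and the vertical axis is CPM on a log scale for the 10 groups (blue LF, yellow HF, red HFCF). The HFCF groups lie highest for all markers but Fabp5, whose LF female means of 72.7 and 142 CPM are above its HFCF means of 53.7 and 47.9 CPM.

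Between HFCF and HF the markers moved further than the middle of all genes. The median log2 fold change of the 10 markers was 1.43, 2.07, 2.09 and 2.12 in male controls, male labelled knockouts, female controls and female labelled knockouts, and that of all genes lay between -0.02 and 0.01. Without the 4 libraries that stand apart, the markers called higher were 10, 9 and 10 of 10 in male controls, female labelled knockouts and female controls. The genes called in either direction rose too, from 3225, 2118 and 4526 to 5429, 2594 and 6530 of all tested. Male labelled knockouts hold none of these libraries.

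**Figure D3:**
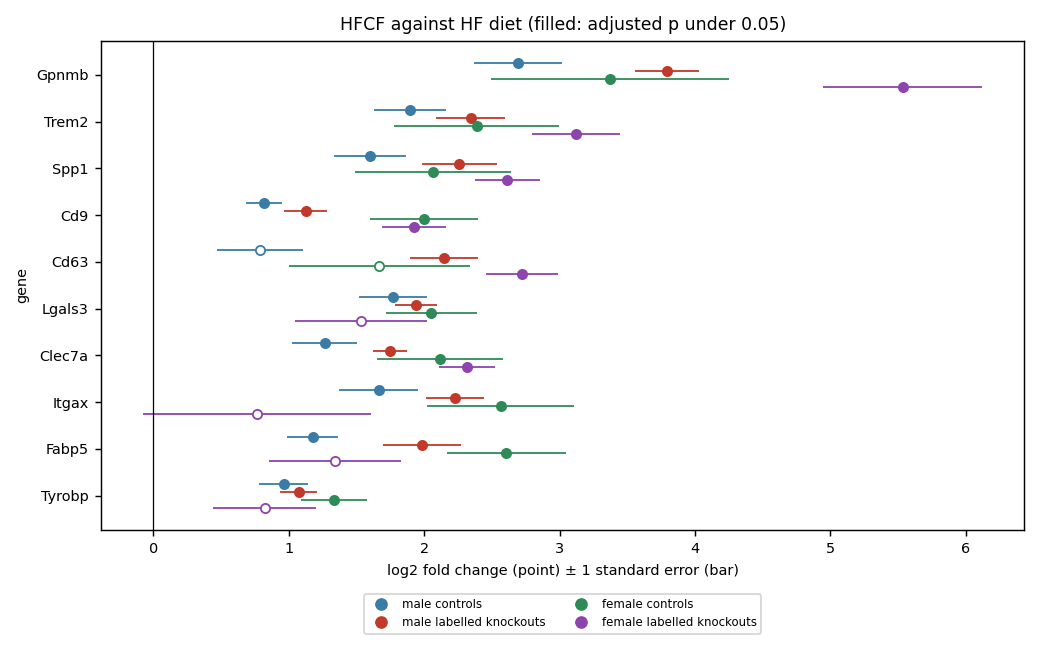
Points are log2 fold changes of HFCF against HF for the 10 markers in 4 comparisons, bars are 1 standard error, and filled points have an adjusted p under 0.05. All points lie above 0, and 6 are open: Cd63 in both control groups, and Lgals3, Itgax, Fabp5 and Tyrobp in female labelled knockouts.

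In females the HFCF diet was also compared with LF. These comparisons share their HFCF libraries with those above and are no separate support. In controls 9 of 10 markers were called higher, with log2 fold changes from 0.95 for Cd9 to 3.50 for Gpnmb, against 18.4% of all genes called higher and 16.8% lower. Without LF replicate 1, at 18.4 CPM for Gpnmb against 0.180 to 1.31 CPM in the other 3, the Gpnmb value was 6.23 and that of Trem2 was 3.35 in place of 2.62. In labelled knockouts the same 9 were called higher, against 8.26% of all genes, and Fabp5 was called lower, against 3.74%. The smallest rise there was that of Cd9, at 0.64 (SE 0.18, adjusted p = 0.04, edgeR), and the largest that of Gpnmb, at 5.36 (SE 0.49). Fabp5 had a log2 fold change of -1.53 (SE 0.43, adjusted p = 0.038, edgeR) in labelled knockouts and -0.44 (SE 0.55, adjusted p = 0.557, edgeR) in controls, where it was 0.58 without LF replicate 2, the library at 184 CPM. Both labelled-knockout calls changed with single libraries. For Cd9 the adjusted p (edgeR) was between 0.0577 and 0.132 without any 1 of 6 of the 8 libraries, all but LF replicate 4 and HFCF replicate 1. For Fabp5 it was between 0.0576 and 0.115 without LF replicate 1 or 4 or HFCF replicate 2, 3 or 4, and the log2 fold change was -0.89 without LF replicate 4, the library at 295 CPM.

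In HF against LF the markers with an unadjusted p under 0.05 were Cd9 and Fabp5 in both genotypes, and edgeR called neither. DESeq2's Wald test called 1 in controls (Fabp5) and 2 in labelled knockouts (Cd9 and Fabp5). It called 638 and 499 of all genes there, against 99 and 22 by edgeR. The Fabp5 log2 fold change was -3.02 (SE 0.73, adjusted p = 0.0928, edgeR) in controls and -2.90 (SE 0.65, adjusted p = 0.101, edgeR) in labelled knockouts. Leaving out 1 library moved it to between -3.74 (HF replicate 1) and -1.996 (LF replicate 2) in controls and to between -3.69 (HF replicate 2) and -2.25 (LF replicate 4) in labelled knockouts. Cd9 had -1.02 (SE 0.37) and -1.31 (SE 0.24). The control HF libraries of Cd9 were 26.9, 7.74, 10.2 and 7.17 CPM against 24.6 to 28.9 CPM on LF, so that only HF replicate 1 reached the LF range. Without it the log2 fold change was -1.66 (adjusted p = 0.00253, edgeR).

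The comparison of labelled knockouts with controls asks whether the hepatocyte-directed Cre virus goes with a different level of these markers on each diet. In HF males all 10 markers had a negative log2 fold change and 7 were called lower. Gpnmb fell by 1.76 (SE 0.28, adjusted p = 0.000417, edgeR) and Cd63 fell by 1.75 (SE 0.29, adjusted p = 0.000592, edgeR). For both, the highest labelled-knockout library (6.49 CPM for Gpnmb and 14.7 CPM for Cd63) lay below the lowest control (7.53 and 17.7 CPM). Trem2 fell by 1.09, Spp1 by 0.88, Lgals3 by 0.85, Itgax by 0.83 and Clec7a by 0.67, and for each of these 5 the groups overlapped. Tyrobp, the partner of Trem2, had -0.17 (SE 0.14, adjusted p = 0.447, edgeR), Cd9 -0.32 and Fabp5 -0.54. Cd9 was called without labelled-knockout replicate 4 (adjusted p = 0.0218, edgeR), and Fabp5 without control replicate 4 (0.0341) or labelled-knockout replicate 6 (0.0468). With all 10 groups in 1 fit, 2 of the 10 (Gpnmb and Cd63) were called, and 1697 of all genes, against 2591 in the main fit. HF males share the control libraries with the diet comparison in male controls.

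In HFCF males 3 markers had an unadjusted p under 0.05: Gpnmb (-0.64, adjusted p = 0.328, edgeR), Trem2 (-0.62, adjusted p = 0.25) and Lgals3 (-0.66, adjusted p = 0.158). Without HFCF control replicate 1, the control that was lowest for 9 markers, these 3 were called lower, at -0.82 (adjusted p = 0.0106, edgeR), -0.78 (adjusted p = 0.00825) and -0.83 (adjusted p = 0.00055). That fit called 1052 of all genes, against 324 with every library kept. The HF females held 2 of the libraries that stand apart. Their Gpnmb log2 fold change of -2.28 (SE 1.15) was 0.019 without control replicate 1 and -3.21 without labelled-knockout replicate 3. The Itgax value of 1.22 was 1.96 and -0.85 without the same libraries. In LF females the Gpnmb value of -1.88 (SE 1.07) was 0.81 without control replicate 1. None of these values was called with or without the library.

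**Figure D4:**
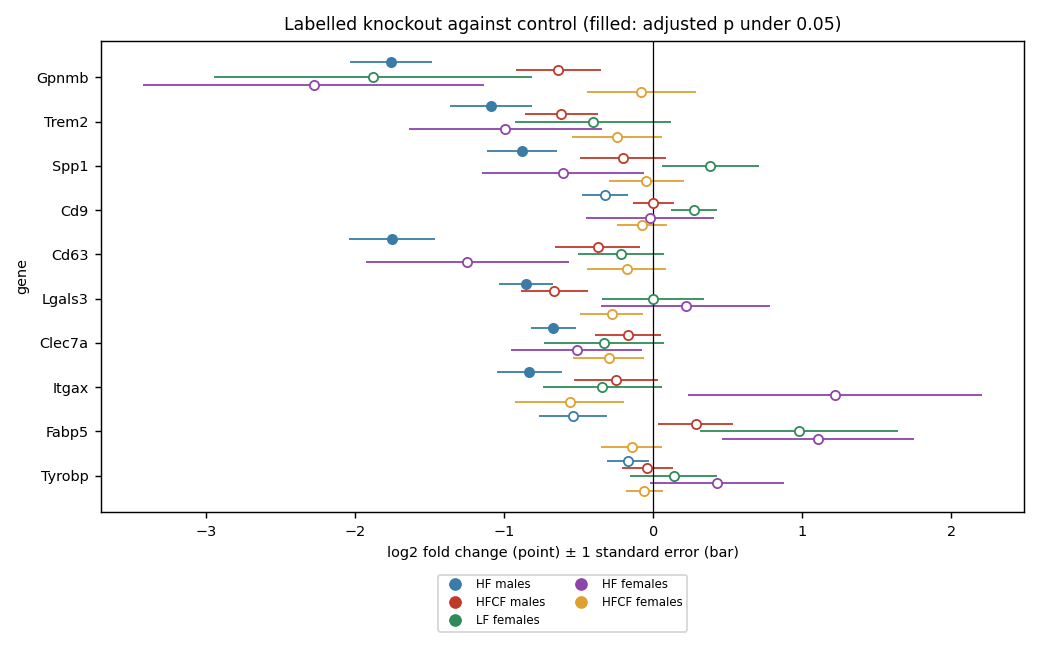
Points are log2 fold changes of labelled knockout against control for the 10 markers in 5 comparisons, bars are 1 standard error, and filled points have an adjusted p under 0.05. The 7 filled points all belong to HF males, and the bars are widest in LF and HF females, up to an SE of 1.15 for Gpnmb.

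Whether the genotype difference itself differed between diets was tested as an interaction. In males 0 of 10 markers passed, against 1.56% of all genes, with 3 of 10 at an unadjusted p under 0.05 and 0 called by DESeq2. Of all 15096 genes tested, 2574 had an unadjusted p under 0.05. Cd63 came nearest, with a difference of 1.36 (SE 0.44, adjusted p = 0.0993, edgeR) between the HFCF and the HF effect, then Gpnmb with 1.103 (SE 0.44, adjusted p = 0.191). The calls in HF males and their absence in HFCF males are therefore not shown to differ. In females 0 of 10 passed, against 0% of all genes, with 0 at an unadjusted p under 0.05 (667 of all 15445 genes) and 0 by DESeq2.

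The diet difference was compared between the sexes in the same way. In controls 0 of 10 passed, against 0.00646% of all genes, with 2 of 10 (Cd9 and Fabp5) at an unadjusted p under 0.05 and 0 called by DESeq2. Of all 15491 genes tested, 2561 had an unadjusted p under 0.05. All 10 differences were negative, that is, the rise on HFCF was smaller in males, from -0.28 for Lgals3 to -1.43 for Fabp5. The count of 0 markers called rests on 1 library. Without female HF control replicate 1, edgeR called 6 of 10 (Gpnmb, Spp1, Cd9, Cd63, Clec7a and Fabp5). The same fit called 1699 of all genes, against 1 with every library kept. Cd9 was then at -1.82 (adjusted p = 0.000389, edgeR), Fabp5 at -2.14 (adjusted p = 0.00107) and Gpnmb at -2.98 (adjusted p = 0.0155). In labelled knockouts 0 of 10 passed, against 0.0130% of all genes, with 3 of 10 at an unadjusted p under 0.05 (1829 of all 15400 genes) and 0 by DESeq2. There Gpnmb had -1.71 (SE 0.61, adjusted p = 0.285, edgeR) and Itgax 1.47 (SE 0.82, adjusted p = 0.486, edgeR). Without female HF labelled-knockout replicate 3 they were -2.69 (adjusted p = 0.125) and -0.59 (adjusted p = 0.674), so that the sign for Itgax turned.

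Genes of the same pathway were described from lists. The shares of all genes called higher on HFCF than on HF were 13.0% in male controls and 21.6% in male labelled knockouts. They were 16.9% in female controls and 8.44% in female labelled knockouts. Of 8 signalling partners of TREM2 and dectin-1, 7 were called higher and 0 lower on HFCF in male controls, with a list median log2 fold change of 0.79 against 0.01 for all genes. Vav1, a signalling protein gene of blood cells, rose by 0.995 (SE 0.19), the lipid kinase subunit gene Pik3cg by 0.89, the phospholipase gene Plcg2 by 0.81 and Card9, an adaptor of dectin-1, by 0.77. The same 7 were called in male labelled knockouts and in female controls, and 0 of 8 in female labelled knockouts by edgeR, 1 of them, Inpp5d, with an unadjusted p under 0.05 (0.0329). The summed level of these 8 in female HF labelled-knockout replicate 3 was 119 CPM, against 25.7 to 41.9 CPM in the other 3. Of 19 further genes known from lipid-associated macrophages, 10, 12, 11 and 8 were called higher in male controls, male labelled knockouts, female controls and female labelled knockouts, and 1, Apoe, lower in male labelled knockouts. Lpl, which encodes lipoprotein lipase, rose by 2.30 (SE 0.23) in male controls, the macrophage elastase gene Mmp12 by 1.62, Ms4a7 by 1.34 and the lysosomal protease gene Ctss by 1.28. The list's median was 0.26 there.

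Of 9 partners of osteopontin and galectin-3, 4, 6, 7 and 3 were called higher in the same order of groups and 0 lower, led in male controls by the osteopontin receptor Cd44 (0.95, SE 0.17) and by the integrin chains Itga9 (0.58), Itgav (0.41) and Itgb5 (0.35). Of 8 partners of the tetraspanins, 4, 5, 5 and 3 were called higher and 0 lower. They were led by Timp1, an inhibitor of metalloproteinases that binds CD63 (1.09, SE 0.32), the leukocyte tetraspanin Cd53 (0.99), Ptgfrn (0.73) and the leukocyte tetraspanin Cd37 (0.64). In HF males 1 of 7, 8 of 19, 3 of 9 and 4 of 8 of the genes tested in these 4 lists were called lower in labelled knockouts, and 0 higher. Of all genes 9.88% were called lower there and 8.57% higher, so that 1 of 7 lies near the share of all genes.

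Markers of whole cell types moved as well, and their counts stand beside 13.0% of all genes called higher and 9.31% lower in male controls. On HFCF against HF in male controls, 6 of 7 pan-macrophage markers were called higher, led by Fcgr1 (1.40), Lyz2 (1.32), Aif1 (0.98) and Cd14 (0.94), and 0 lower. Their summed level ran from 242 to 339 CPM in HF and from 327 to 631 CPM in HFCF libraries. For resident Kupffer cells 3 of 8 were called higher (Cd5l, Folr2 and C6) and 0 lower, with sums of 257 to 510 CPM and 498 to 687 CPM. In the other groups this list went both ways: 3 higher and 3 lower (Timd4, Marco and Cd163) in male labelled knockouts, 3 higher and 1 lower (Cd163) in female controls, and 1 higher and 1 lower (Cd163) in female labelled knockouts. For monocytes 3 of 6 were called, with Cx3cr1 at 1.60, Ccr2 at 1.36 and Plac8 at 0.84, and sums of 24.4 to 38.2 CPM and 29.8 to 78.4 CPM. Dendritic cell markers gave 3 of 7 (Xcr1, Ccr7 and Clec9a), neutrophil markers 1 of 3 tested (Csf3r), and T, B and NK cell markers 0 of 8 tested by edgeR, with 1 (Cd4) at an unadjusted p under 0.05.

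Epithelial and stromal markers rose in the same comparison. For cholangiocytes and progenitors 7 of 7 were called higher, led by Cftr (2.35), Cldn7 (1.93), Epcam (1.71) and Krt19 (1.52), with sums of 25.5 to 42.7 CPM on HF and 31.2 to 120 CPM on HFCF. For stellate cells and myofibroblasts 5 of 7 were called higher, led by Col1a1 (1.36), Acta2 (1.24), Col1a2 (1.08) and Pdgfrb (0.73), with sums of 273 to 431 CPM and 350 to 664 CPM. Of the sinusoidal endothelial markers 0 of 5 and of the blood markers 0 of 5 were called by edgeR, with 0 and 1 (Alas2) at an unadjusted p under 0.05. In female controls 4 of 5 sinusoidal endothelial markers were called higher (Stab2, Lyve1, Oit3 and Kdr), and in male labelled knockouts 5 of 5 blood markers lower. For hepatocytes 3 of 6 were lower (Alb at -0.66, Ttr at -0.42 and Hnf4a at -0.27) and Cyp3a11 was higher (0.65). The part of any of these cell types in the rise of the 10 markers was not tested.

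The libraries that stand apart for the 10 markers stood apart for some of these lists too. Male HFCF control replicate 1 had the lowest sum of its group for pan-macrophage (327 CPM), monocyte (29.8 CPM), cholangiocyte (31.2 CPM) and stellate cell markers (350 CPM), the last against 621 to 664 CPM in the other 5. Female HF control replicate 1 had the highest stellate cell sum, 510 CPM against 112 to 177 CPM, and the highest cholangiocyte sum, 53.2 CPM against 20.4 to 22.7 CPM. Female HF labelled-knockout replicate 3 had a neutrophil sum of 97.5 CPM against 6.25 to 9.20 CPM, with S100a9 at 42.3 CPM and S100a8 at 27.5 CPM, and a pan-macrophage sum of 480 CPM against 235 to 302 CPM. Its stellate cell sum, 142 CPM, lay within the range of the other 3. Female LF control replicate 1 had the highest pan-macrophage sum of its group, 485 CPM against 217 to 377 CPM, the highest monocyte sum, 38.2 CPM against 17.6 to 23.1 CPM, and the highest stellate cell sum, 274 CPM against 174 to 207 CPM. These values were not tested as a source of the marker levels.

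In HF males, the comparison in which 7 markers were lower in labelled knockouts, the cell type lists moved as follows, beside 9.88% of all genes called lower and 8.57% higher. Of the pan-macrophage markers 1 of 7 was called lower (Cd14), with sums of 221 to 403 CPM in labelled knockouts and 242 to 339 CPM in controls. Of the Kupffer cell markers 0 of 8 were lower and 1, Clec4f, was higher. Of the stellate cell markers 4 of 7 were called lower (Pdgfrb, Col1a1, Col1a2 and Reln), and the sums, 190 to 252 CPM in labelled knockouts and 273 to 431 CPM in controls, did not overlap. Of the monocyte markers 1 of 5 tested was lower (Ccr2). Of the hepatocyte markers 4 of 6 were called higher (Alb, Ttr, Apoa1 and Tat) and Cyp3a11 lower, and their sums, 84150 to 98143 CPM against 58906 to 82198 CPM, did not overlap. Blood markers gave 3 of 5 called higher, with sums of 164 to 815 CPM against 165 to 247 CPM. Every gene of these lists had reads in both groups, and the part of any list in the result was not tested.

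**Figure D5:**
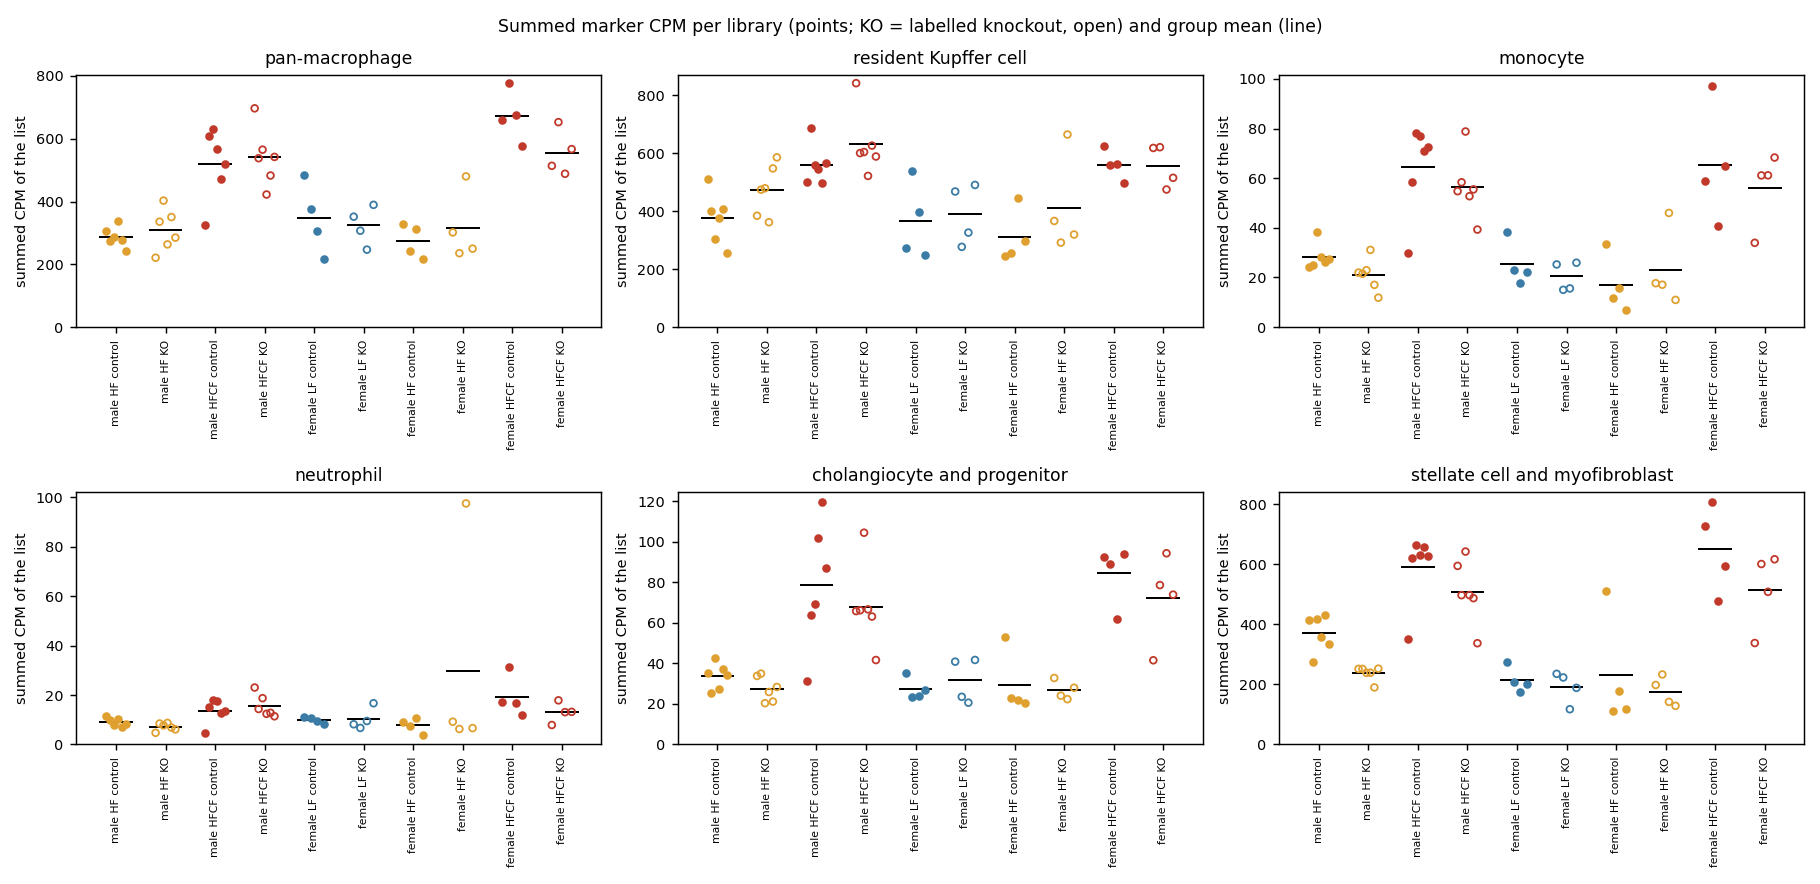
Each panel is the summed CPM of 1 marker list (vertical axis, from 0) in each library (points, filled for controls and open for labelled knockouts) with the group mean (line) over the 10 groups. HFCF groups have the highest group means for the macrophage, monocyte, cholangiocyte and stellate cell lists, and 1 female HF labelled-knockout library stands at 97.5 CPM in the neutrophil panel.

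The 10 markers did not share 1 pattern to the same degree. Over the 10 group means of log2 CPM, the Pearson r of each marker with the mean of all 10 markers (which includes it) was 0.995 for Spp1, 0.986 for Trem2, 0.983 for Itgax, 0.981 for Lgals3, and from 0.960 to 0.966 for Gpnmb, Tyrobp, Cd63 and Clec7a. It was 0.889 for Cd9 and 0.377 for Fabp5, the lowest. The 5 other genes with the highest r among 12334 candidates were Cbx6 (0.995), Cotl1 (0.994), Tspan8 (0.994), Ddr1 (0.994) and Mfge8 (0.994). Mfge8 encodes a bridging protein for the uptake of dying cells, and in male controls it measured 35.0 ± 7.13 CPM on HF and 57.5 ± 13.8 CPM on HFCF (SD, n = 6 each). Ddr1, a collagen receptor gene, measured 7.94 ± 2.997 and 22.1 ± 8.32 CPM in the same groups. These r values describe 10 means that share diets, sexes and libraries, and carry no test.

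On the per-length FPKM scale Spp1 was the highest in all 10 groups, and Tyrobp was the second highest in 8 and the third in the LF females, where Fabp5 came second. Fabp5 ranged from rank 2 to 8, Cd63 from 4 to 8, Lgals3 from 3 to 6 and Gpnmb from 7 to 10. These ranks depend on the summed exon length of each gene, which ran from 667 bases for Tyrobp to 6514 bases for Gpnmb. Trem2, Itgax and Gpnmb took the last ranks in male HF controls, at 1.31 ± 0.297, 1.57 ± 0.372 and 1.93 ± 0.567 FPKM (SD, n = 6), values whose spreads overlap. In male HFCF controls Gpnmb stood at 12.3 ± 5.76 FPKM, near Cd63 at 15.4 ± 5.60 and Clec7a at 16.9 ± 6.34 FPKM, neighbours that do not differ beyond their spread.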

How the data were processed

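RNA-seq of whole liver was not strand specific, with inserts of 250 to 300 bp, per the labels' protocols. The submitters' processing notes name STAR 2.6.1, HTSeq 0.6.1 and DESeq2 version 2 and the build GRCm38, without roles. The authors deposited whole-number counts per gene without normalization and FPKM values per gene and library in 11 tables, per the file headers; FPKM served only to compare levels between genes. Repeated counts agreed between tables (0 of 1341082 differed), so the tables were joined and genes that a table does not list were taken as 0 reads there. No per-sample column was left unmapped. CPM used TMM factors. Each comparison was fitted on its own groups with edgeR 4.0.16 in R 4.3.3 (filterByExpr, quasi-likelihood test, Benjamini-Hochberg over all genes). On simulated data for HFCF against HF, 198 of 200 genes changed by 1 log2 unit were called in male controls (14257 genes) and 184 of 200 in female controls (14230 genes). Among unchanged genes, 5 and 15 were called. The simulation gave every gene the same spread and changed only genes above a floor on reads. Recovery of markers that vary more between libraries was therefore not simulated. DESeq2 1.42.0 served as an alternative. Coordinates equal those of GENCODE M21 for 97.3% of shared genes.

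The 10 markers and all lists were chosen with earlier results of these data known. Named list genes are the 4 per list with the largest absolute change among called genes that reach 1 CPM in a group, in male controls, HFCF against HF, with defining markers of a cell type that moves with a result. The genes most like the markers have a mean of at least 1 CPM and no predicted-gene symbol. Each library is 1 mouse, per the series' description. Replicate numbers were not taken as pairs, since no comparison had every same-numbered pair correlated above 0.1. Single pairs reached an r of 0.423 in HF against LF of female controls. In labelled knockouts against controls they reached 0.418 in HF females and 0.343 in LF females. This rule cannot show that pairing is absent.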

Additional observations from a re-analysis of the deposited data

Results flagged for a closer look

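Of 100 combinations of marker and group, 12 held a library whose gap to its nearest neighbour exceeded Dixon's 95% critical value for the range of the group. Chance gives about 1 in 20. The 12 come from 4 libraries, and genes of 1 library are not independent of each other.

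Male HFCF control replicate 1 was far below the other 5 for Spp1 (141 CPM), Cd9 (25.9 CPM), Cd63 (16.0 CPM) and Itgax (5.87 CPM). Female HF control replicate 1 was far above the other 3 for Gpnmb (19.5 CPM), Spp1 (247 CPM), Cd9 (26.9 CPM) and Cd63 (53.5 CPM). Female LF control replicate 1 was far above the other 3 for Gpnmb (18.4 CPM) and Trem2 (8.07 CPM). Female HF labelled-knockout replicate 3 was far above the other 3 for Lgals3 (24.7 CPM) and Itgax (40.8 CPM).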

How the results depend on the processing

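DESeq2 size factors in place of TMM kept the call and direction of every marker in all 17 comparisons and moved no group mean beyond 1 SD. In HF against LF controls the number of markers called rose from 0 to 1 with the DESeq2 Wald test, 1 without the filter on low counts, 2 with all 10 groups in one fit and 2 without the 4 libraries that stand apart. Of all genes, the number rose there from 99 to 638, 185, 910 and 238. In labelled knockouts the markers called rose from 0 to 2 with each of the first 3 settings, and all genes called from 22 to 499, 124 and 514. In HF males labelled knockout against control fell from 7 to 2 with all 10 groups in one fit, and all genes called fell from 2591 to 1697. Without the 4 libraries, HFCF males went from 0 to 3, and the sex difference of the diet effect in controls from 0 to 7. The genes called of all tested rose as well, from 324 to 1052 and from 1 to 1790. With the replicate block, HFCF against HF in female controls went from 9 to 0 called (0 genes of all tested; 10 of 10 markers at an unadjusted p under 0.05); the block changed the number called by more than 1.5 times in no other comparison. In those female controls the block uses 3 shared numbers, whose same-numbered pairs had r from -0.229 to 0.074. Leaving out 1 library gave 0 to 1 for HF against LF in controls, 0 to 3 for HFCF males, and 0 to 6 for the sex difference in controls. The fits with these highest counts called 112, 1052 and 1699 of all genes. For HFCF against HF the ranges were 9 to 10 and 10 to 10 in male controls and labelled knockouts, and 6 to 10 and 6 to 9 in females. In female labelled knockouts the main fit called 6 markers there. Without the filter on low counts it was 8, and with all 10 groups in one fit 9. Of all genes, 2118, 2082 and 4199 were called. Of the 60 log2 fold changes called, 0 changed sign in an alternative, and of the 110 not called, 51 did in at least 1.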
